A study of Mus musculus with 13 samples.

Results

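The comparison described here sets mice that met social defeat stress as adults against mice that did not, all of which carried a Setd7 virus. It rests on 6 of the 13 libraries of the series, chosen by their labels alone: 2 Setd7 defeat libraries and 4 Setd7 control libraries. Of 26264 genes in the deposited table, 17755 reached 10 normalized counts in at least 2 of the 13 libraries, and all of these were tested. Setd7 defeat replicate 1 was female and replicate 2 male; Setd7 control replicates 1 and 2 were female and replicates 3 and 4 male. All 6 libraries come from C57BlJ/6 mice whose ventral tegmental area (VTA) was infected at postnatal day 14, and from punches of the adult VTA. The other libraries of the series are GFP defeat (4 libraries) and GFP control (3 libraries), of the same strain and tissue, where the virus carried green fluorescent protein; they enter here to estimate the spread of each gene and to test whether the defeat difference depends on the virus.

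The VTA holds the dopamine neurons that project to the striatum and cortex, among GABA and glutamate neurons, glia and vessels. In social defeat a mouse is repeatedly placed with an aggressor, and dopamine neurons of the VTA are known to change their firing after it. Setd7 is a lysine methyltransferase first known for placing a single methyl group on lysine 4 of histone H3, a mark of active and poised regulatory DNA. Defeat given on top of Setd7 asks how a VTA with raised Setd7 responds to stress in adulthood.

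The virus type, the promoter that drives Setd7 in it and the cells it infected are not given in the sources used here. Whether every library holds its own mouse is not stated in the labels; p-values therefore describe the spread among libraries, part of which may be technical. The column of Setd7 defeat replicate 1 carries a longer number than its title, and whether it holds RNA of 1 animal is not settled. A punch is bulk tissue, in which fewer cells of a type and less RNA per cell cannot be told apart.

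Reads assigned to genes came to 35305070 and 31184230 in the Setd7 defeat libraries and 33137478 to 48434250 in the Setd7 control libraries. The 15 pairs among the 6 libraries correlated at 0.971 to 0.984 (Pearson's r of log2 values across genes). Dopamine neuron RNA was present in each: Th, which encodes the rate-limiting enzyme of dopamine synthesis, had 11999 and 10751 normalized counts in Setd7 defeat libraries, against 13299, 9801, 10728 and 19111 in Setd7 control libraries. Values below are normalized counts, reads scaled by the authors to a common depth, and differences are log2 fold changes of Setd7 defeat over Setd7 control on the log2(normalized count + 1) scale, with their standard error (SE).

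Libraries that stand apart from the rest touch most of the results that follow. Among the 14975 genes with a mean of at least 30 normalized counts over the 6 libraries, 119 were at least 2-fold higher in Setd7 defeat replicate 1 than in any of the other 5. In Setd7 defeat replicate 2 the same count was 0. It was 1, 1, 30 and 156 in Setd7 control replicates 1 to 4. The genes so counted were not sorted by kind. In the gene lists used below, meningeal genes were highest in Setd7 defeat replicate 1. Most hypothalamic genes, listed after the values were seen, were highest in Setd7 control replicate 3. Interferon, antigen presentation and leukocyte genes were highest in Setd7 control replicate 4.

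**Figure D1:**
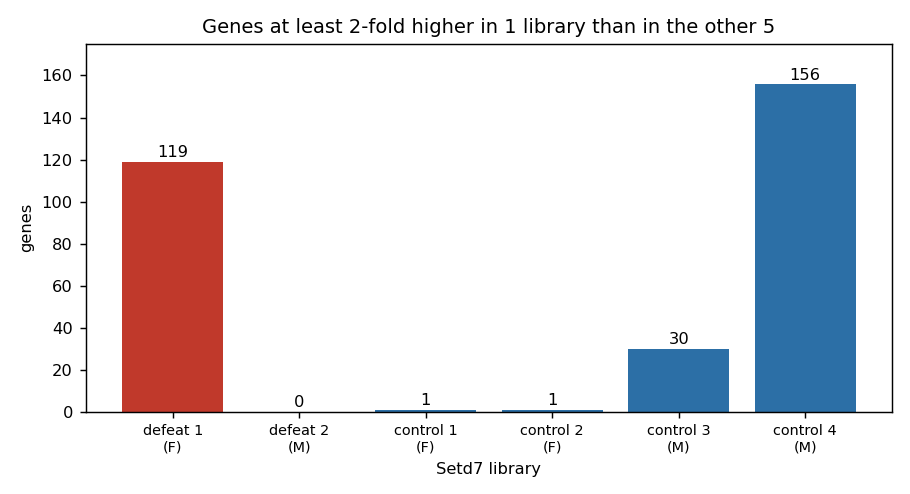
Number of genes (vertical axis, from 0) at least 2-fold higher in 1 of the 6 Setd7 libraries than in each of the other 5, for genes with a mean of at least 30 normalized counts. Red bars are Setd7 defeat and blue bars Setd7 control, with F for female and M for male. The counts are 119 and 0 in the defeat libraries and 1, 1, 30 and 156 in the control libraries.

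No gene passed an adjusted p of 0.05 by limma (0 of 17755, which is 0%; the smallest adjusted p was 0.9999). At an unadjusted p under 0.05 limma had 459 genes, 2.59% of those tested, of which 258 (1.45%) were higher and 201 (1.13%) lower after defeat. The quasi-likelihood test of edgeR on whole reads recovered from the table called 0 genes and had 464 at an unadjusted p under 0.05. DESeq2 on the same reads called 7 genes (0.0394%), all of them higher after defeat: Thbd, Sox1ot, Cdh1, Col6a2, Slc47a1, Aldh1a2 and Prg4. Both defeat libraries lay above all 4 control libraries for 742 genes (4.18%) and below all 4 for 881 genes (4.96%). Over all genes tested the median log2 fold change was -0.01, and 8519 genes were higher and 9236 lower.

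The 258 genes higher at an unadjusted p under 0.05 were mostly higher in the female than in the male defeat library: 213 had the larger value in replicate 1 and 45 in replicate 2. In 82 of them replicate 1 exceeded replicate 2 by at least 2-fold, and in 3 the reverse held. The 201 lower genes were divided more evenly, with 88 larger in replicate 1 and 109 larger in replicate 2. Without replicate 1, 250 of the 258 higher genes kept their direction and 37 stayed at p under 0.05; without replicate 2 these counts were 258 and 173.

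Setd7 itself was high in all 6 libraries. It had 92288 and 123133 normalized counts in Setd7 defeat libraries, against 158681, 140236, 81302 and 28587 in Setd7 control libraries. Both defeat values fall inside the control range. For comparison, GFP defeat libraries had 10888 to 14060.1 and GFP control libraries 13480.5 to 14538, all below the lowest Setd7 library. The log2 fold change of Setd7 with defeat was 0.33 ± 0.45 (SE; limma unadjusted p = 0.475). Its direction rests on 2 libraries: it was -0.17 without Setd7 control replicate 4 and -0.19 without Setd7 defeat replicate 2. Setd7 reads sum the transgene and the mouse's own gene, and the 4 control libraries differed among themselves by more than the group means did.

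Sox1ot had the smallest limma p of the genes named here, and its 2 defeat libraries were alike. It is a long noncoding RNA whose annotated span holds, on the same strand, Sox1, a transcription factor gene of neural progenitors and of some neurons. Sox1ot had 648 and 613 normalized counts in Setd7 defeat libraries, against 378, 345, 358 and 363 in Setd7 control libraries. Both sexes showed the difference, with log2 differences of 0.84 between females and 0.76 between males, and the groups do not overlap. The log2 fold change was 0.80 ± 0.15 (limma unadjusted p = 0.000167; DESeq2 adjusted p = 0.0136). It was 0.79 without Setd7 defeat replicate 1 and 0.81 without replicate 2.

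Sox1ot was also higher after defeat with the GFP virus, where it had 636, 503, 687 and 458 normalized counts in GFP defeat libraries and 423, 366 and 359 in GFP control libraries (log2 fold change 0.55, limma unadjusted p = 0.00142). All 6 defeated libraries lay above all 7 undefeated ones. The defeat difference was larger by 0.25 with Setd7 than with GFP, which is within the spread (limma unadjusted p = 0.237). Sox1 had 1239.6 and 1304 normalized counts in Setd7 defeat libraries, against 1193, 1226, 1247 and 1083 in Setd7 control libraries, and these overlap (log2 fold change 0.10 ± 0.09). Because the 2 genes overlap in the annotation, how the authors' counting divided reads between them is uncertain.

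The promoter windows of Sox1ot and of Aldh1a2 are printed because these genes stand for the 2 kinds of pattern among the DESeq2 calls, alike in both defeat libraries or carried by 1 of them. Both are RefSeq windows of the build GRCm38.p6, from 250 bases before to 50 after the annotated start, read 5′ to 3′ on the plus strand; the counts were made on GRCm39, so the coordinates belong to the sequences only. Sox1ot lies at chr8:12385521-12385820 and Aldh1a2 at chr9:71215539-71215838. Capitals mark AACAAT (the core letters of many SOX protein sites), CCAAT (bound by NF-Y) and GGGCGG (bound by SP1), searched on both strands after the sequences had been seen.
Sox1ot: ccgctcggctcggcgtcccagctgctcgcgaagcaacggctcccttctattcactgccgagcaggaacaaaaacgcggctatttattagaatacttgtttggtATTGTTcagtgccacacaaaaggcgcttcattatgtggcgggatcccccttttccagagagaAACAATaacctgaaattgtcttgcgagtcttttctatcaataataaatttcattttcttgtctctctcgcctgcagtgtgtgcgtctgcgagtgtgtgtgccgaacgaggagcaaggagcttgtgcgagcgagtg
Aldh1a2: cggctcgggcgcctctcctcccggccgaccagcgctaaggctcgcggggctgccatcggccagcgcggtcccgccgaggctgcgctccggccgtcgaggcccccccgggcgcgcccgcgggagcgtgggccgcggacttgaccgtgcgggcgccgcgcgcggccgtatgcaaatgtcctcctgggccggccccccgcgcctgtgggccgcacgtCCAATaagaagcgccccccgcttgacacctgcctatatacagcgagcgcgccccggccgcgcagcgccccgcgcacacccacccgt
The Sox1ot window holds AACAAT 2 times, once on each strand, and 10.7% of all 32851 promoter windows hold it at least once. The Aldh1a2 window holds CCAAT once, as do 37.4% of windows at least once, and GGGCGG, held by 35.7% of windows, is in neither. The GC content was 49.7% for Sox1ot and 78.0% for Aldh1a2, against a median of 52.7% over all windows. A match describes letters in the window and says nothing of binding.

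The other 6 genes called by DESeq2 differ from Sox1ot in that Setd7 defeat replicate 1 carries most of the difference. Thbd, which encodes the endothelial and mesothelial anticoagulant receptor thrombomodulin, had 2200.5 and 648 normalized counts in Setd7 defeat libraries, against 536, 556, 509 and 493 in Setd7 control libraries. Both defeat values were above all controls, but the female value was 3.39 times the male one. Its log2 fold change was 1.19 ± 0.28 (limma unadjusted p = 0.000906; DESeq2 adjusted p = 0.0111), and 0.39 without replicate 1 (limma unadjusted p = 0.0262).

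Cdh1, which encodes the epithelial adhesion protein E-cadherin and marks arachnoid barrier cells in the brain's coverings, had 581 and 28.1 normalized counts in Setd7 defeat libraries, against 8.74, 33.4, 8.63 and 17.3 in Setd7 control libraries. The male defeat library lay inside the control range. Its log2 fold change was 3.06 ± 0.88 (DESeq2 adjusted p = 0.0164). Prg4, a secreted lubricating proteoglycan, showed the same arrangement, with 449 and 46.9 normalized counts in Setd7 defeat libraries and 33.8, 52.7, 38.8 and 37.7 in Setd7 control libraries (log2 fold change 1.83 ± 0.57; DESeq2 adjusted p = 0.0391).

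For Aldh1a2, Slc47a1 and Col6a2 the male defeat library also exceeded every control, by a small margin. Aldh1a2, the retinoic acid synthesis enzyme that meningeal fibroblasts make, had 678 and 116 normalized counts in Setd7 defeat libraries, against 44.8, 109, 58.3 and 80.5 in Setd7 control libraries (log2 fold change 2.01 ± 0.55; DESeq2 adjusted p = 0.0374). Slc47a1, an exporter of organic cations found in the arachnoid, had 273 and 42.2 against 7.64, 24.5, 20.5 and 30.6 normalized counts (log2 fold change 2.47 ± 0.68; DESeq2 adjusted p = 0.0351). Col6a2, a chain of the matrix protein collagen VI, had 514 and 130.1 against 75.3, 91.3, 114 and 84.6 (log2 fold change 1.51 ± 0.39; DESeq2 adjusted p = 0.0278).

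Leaving out Setd7 defeat replicate 1 brought the log2 fold changes of these 5 genes to 1.16 for Cdh1, 0.96 for Slc47a1, 0.88 for Aldh1a2, 0.49 for Col6a2 and 0.27 for Prg4. None of those was at an unadjusted p under 0.05 by limma, whose smallest was 0.127, for Col6a2. In the GFP libraries defeat went with log2 fold changes of -1.38 for Cdh1, -0.85 for Slc47a1, -0.16 for Aldh1a2, 0.08 for Col6a2 and 0.40 for Prg4. The difference of the defeat effect between the viruses reached DESeq2's threshold for Cdh1 alone (adjusted p = 0.00486), while limma called 0 genes (smallest adjusted p = 0.942), edgeR called 0, and limma had 880 genes at an unadjusted p under 0.05 (4.96%).

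**Figure D2:**
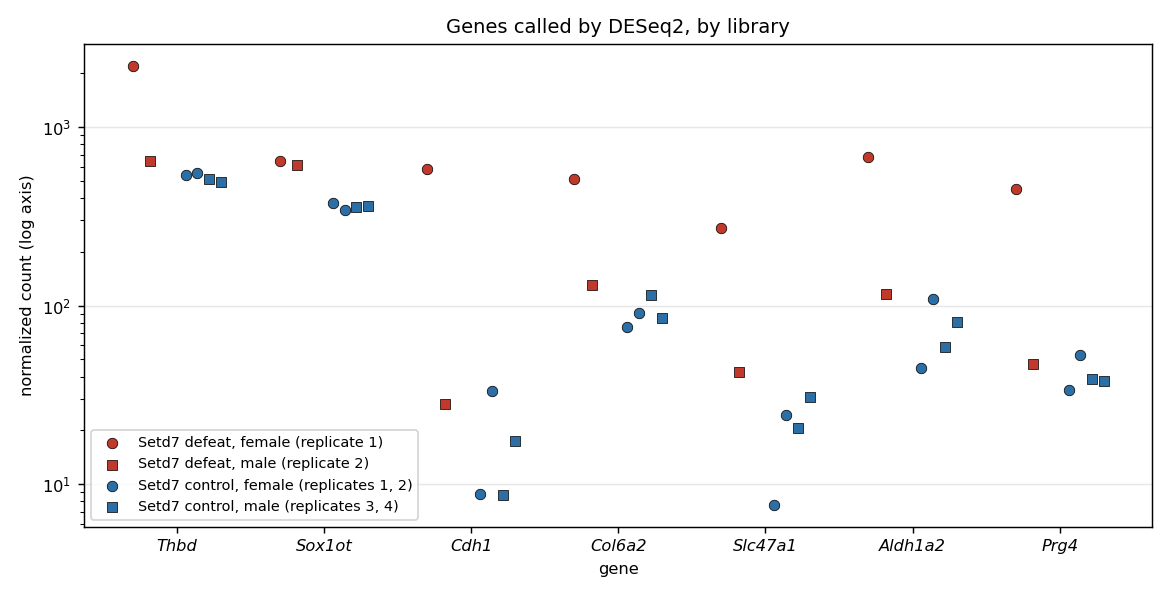
Normalized counts (log axis) of the 7 genes called by DESeq2 in each of the 6 Setd7 libraries; red is Setd7 defeat and blue Setd7 control, circles are female and squares male, and each point is 1 library. Setd7 defeat replicate 1 is the highest point for every gene, and Sox1ot (648 and 613 against 345 to 378) is the gene where replicate 2 lies nearest to it.

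Meningeal fibroblast markers were higher after defeat as a group. All 16 markers tested had a positive log2 fold change, 11 of them at an unadjusted p under 0.05, and the median was 1.16, against 1.45% of all genes higher at that p and a median of -0.01 over all genes. Their summed level was 30129 and 6307 normalized counts in Setd7 defeat libraries, against 5287, 9451, 6109 and 6539 in Setd7 control libraries. Replicate 1 stands far above every control library, while replicate 2 lies within the control range. All 16 markers had their highest value in replicate 1.

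Among them, Slc13a4, a sulfate transporter of the meninges, had 1512 and 106 normalized counts in Setd7 defeat libraries, against 45.9, 185, 56.1 and 80.5 in Setd7 control libraries (log2 fold change 2.33 ± 0.83). Ogn, the matrix proteoglycan osteoglycin, had 1166 and 151, against 98.3, 214, 123 and 104 (1.71 ± 0.54). In both genes the male defeat value lies inside the control range. Fn1, fibronectin, had 8241 and 2876 in Setd7 defeat libraries, against 2569, 2914, 2801 and 2983 in Setd7 control libraries (0.79 ± 0.25). The list's median was 0.10 without Setd7 defeat replicate 1 and 2.48 without replicate 2, and it was -0.23 for defeat with GFP, where 2 of the 16 markers were higher.

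A list of 10 genes known from arachnoid and meninges was also higher on the log2 scale. It is not independent of the results above, since it holds Aldh1a2, Slc47a1, Cdh1 and Prg4 again. These 10 genes were picked after the values had been seen and are given as levels only. Ptgds, the prostaglandin D synthase of meninges and oligodendrocytes, had 37314 and 7536 normalized counts in Setd7 defeat libraries, against 8034, 10767, 6321 and 8339.5 in Setd7 control libraries. Foxc2, a forkhead factor of mesenchyme, had 328 and 55.1, against 25.1, 51.9, 19.4 and 12.2. The related factor Foxc1 had 1117 and 395, against 389, 497, 312 and 349.7. All 10 were highest in Setd7 defeat replicate 1.

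When the male defeat library was left out, limma called 18 genes, 17 of them higher in the remaining female defeat library: Fn1, Thbd, Islr, Col6a2, Prg4, Slc22a8, Slc13a3, Tgfbr3, Cped1, Thsd4, Aebp1, Ptpn14, Mrc2, Lamb2, Ahnak, Slc16a12 and Vtn. The lone library is assumed there to vary like the other groups. Islr, a secreted protein of fibroblasts, shows the arrangement, with 1503 and 223 normalized counts in Setd7 defeat libraries against 213, 337, 251 and 254 in Setd7 control libraries. Without the female library instead, limma called 0 genes and had 707 at an unadjusted p under 0.05. The part that meningeal tissue in the punch takes in these differences was not tested.

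Vessel genes were higher by a smaller margin than meningeal genes. Of 21 endothelial and mural markers 19 had a positive log2 fold change, 5 of them (Flt1, Pecam1, Cdh5, Vtn and Ocln) at an unadjusted p under 0.05, against 1.45% of all genes, and the median was 0.22. Setd7 defeat replicate 1 was the highest library for 15 of the 21 and replicate 2 for 3. Their summed level was 39091 and 32279 normalized counts in Setd7 defeat libraries, against 27897 to 32507 in Setd7 control libraries, so replicate 2 falls just inside the control range. Flt1, a receptor for vascular endothelial growth factor, had 5503 and 5847, against 5160.4, 4918, 4529 and 4923 (log2 fold change 0.22 ± 0.07, limma unadjusted p = 0.0104). Here the male library was the higher of the pair, and both lay above every control. Vtn, the matrix protein vitronectin that pericytes make, had 3601 and 1434, against 1279, 1678, 1400.2 and 1563, and its log2 fold change was 0.63, or -0.04 without replicate 1.

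Other genes of vessels and signalling had non-overlapping groups. Adgrl4, an adhesion receptor of endothelial cells, had 1562 and 1361 normalized counts in Setd7 defeat libraries, against 1153, 1270.3, 1118 and 1113 in Setd7 control libraries (log2 fold change 0.33 ± 0.08). Cxcl12, a chemokine made by vessels and meninges, had 4170.3 and 3899.8, against 3584, 3103, 3183 and 3306 (0.29 ± 0.08). Both differences stayed near that size without either defeat library, at 0.30 and 0.27 without replicate 1 and 0.35 and 0.32 without replicate 2. Plvap, a protein of fenestrated endothelium, ran the other way, with 145 and 189.9 against 273, 217, 294 and 209 (-0.56 ± 0.19).

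Pecam1, an endothelial adhesion protein, overlapped between the groups, with 1398 and 995 normalized counts in Setd7 defeat libraries against 876, 1114, 832 and 869 in Setd7 control libraries. The list's median was 0.09 without replicate 1 and -0.01 for defeat with GFP. The blood-cell gene Alas2 was the only one of 5 red cell genes that could be tested, with 224 and 352 against 187 to 271.

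Fzd2 and Fzd6, both Frizzled receptors for Wnt ligands, were among the genes with the smallest p and lay above all controls in both defeat libraries. Fzd2 had 1344 and 924 normalized counts in Setd7 defeat libraries, against 818, 745, 711 and 729 in Setd7 control libraries (log2 fold change 0.57 ± 0.15). Fzd6 had 617 and 509, against 380.0, 434, 386 and 440.4 (0.45 ± 0.12). The co-receptor Lrp5 had 899 and 727, against 664, 754, 629 and 634, and overlaps. Without replicate 1 the log2 fold changes of Fzd2, Fzd6 and Lrp5 were 0.27, 0.31 and 0.16, and without replicate 2 they were 0.88, 0.59 and 0.39. Of 38 Wnt ligands, receptors and modulators 28 were higher and 10 lower, 3 of the higher ones (Fzd2, Fzd6 and Lrp5) at an unadjusted p under 0.05, against 1.45% of all genes, and the median was 0.13, or -0.01 without replicate 1. Fzd2 was higher after defeat with GFP too (log2 fold change 0.45, limma unadjusted p = 0.00511).

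Several higher genes lie outside the lists. Bace2, a relative of the amyloid precursor protease BACE1, had 285 and 164 normalized counts in Setd7 defeat libraries, against 116, 129.8, 115 and 115 in Setd7 control libraries (log2 fold change 0.86 ± 0.21). Crnde, a long noncoding RNA, had 176 and 171, against 67.7, 117, 60.4 and 93.8 (1.07 ± 0.29), and its 2 defeat libraries were alike. Tgfbr3, the co-receptor betaglycan of the transforming growth factor beta family, had 2239 and 1304, against 1102, 1225, 1056 and 1235 (0.57 ± 0.15). Without replicate 1 the log2 fold changes of Bace2 and Tgfbr3 were 0.53 and 0.18, and without replicate 2 they were 1.19 and 0.95.

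Slc26a7, Colec12, Hcar1 and Tspan11 were highest in Setd7 defeat replicate 1. Replicate 2 also exceeded every control for Slc26a7, Tspan11 and, narrowly, Hcar1, and lay inside the control range for Colec12. Slc26a7, an anion exchanger, had 112 and 38.7 normalized counts in Setd7 defeat libraries, against 12.01, 22.3, 20.5 and 12.2 in Setd7 control libraries (log2 fold change 1.97 ± 0.50). Colec12, a scavenger receptor of vessels and stroma, had 1119 and 464, against 269, 466, 268 and 369 (1.11 ± 0.29). Hcar1, the lactate receptor that fibroblasts around brain vessels carry, had 267 and 31.7, against 12.01, 22.3, 14.02 and 30.6 (2.26 ± 0.70). Tspan11, a tetraspanin, had 121 and 45.7, against 6.55, 26.7, 24.8 and 25.5 (1.96 ± 0.54). Without replicate 1 the log2 fold changes of Slc26a7, Colec12, Hcar1 and Tspan11 were 1.22, 0.55, 0.74 and 0.87.

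Fev and Slc17a8, both of serotonin neurons, were higher after defeat in both libraries. Fev, the transcription factor that specifies serotonin neurons, had 277 and 170.0 normalized counts in Setd7 defeat libraries, against 59.0, 74.2, 29.1 and 73.4 in Setd7 control libraries (log2 fold change 1.95 ± 0.71, limma unadjusted p = 0.0175). Slc17a8, the vesicular glutamate transporter VGLUT3 that many of these neurons share, had 1671 and 451, against 72.1, 275, 73.4 and 191 (2.74 ± 0.82, limma unadjusted p = 0.00567). In both genes the groups do not overlap, and the female library is the higher.

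Tph2, the serotonin synthesis enzyme of the brain, and Slc6a4, the serotonin transporter, were then looked up because of those values. Tph2 had 7019 and 3022 normalized counts in Setd7 defeat libraries, against 1044, 2017, 1096 and 1900.3 in Setd7 control libraries. Slc6a4 had 5055 and 2472, against 954, 1551, 832 and 1502. The 6 serotonin genes together summed to 14659 and 7301 in Setd7 defeat libraries and 3008 to 5281 in Setd7 control libraries. These 6 genes, Fev among them, were gathered because of high values, so their sum is a description. Htr1a, a serotonin receptor of these cells, overlapped between the groups. Tph2 also ranged widely with GFP, at 2562 to 6373 in GFP defeat libraries and 343 to 4864 in GFP control libraries. For defeat with GFP 5 of the 6 serotonin genes were higher as well, with a median log2 fold change of 0.96. Serotonin cell bodies lie in the raphe nuclei behind the VTA, and the part that raphe tissue in the punch takes in these values was not tested.

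Among GABA neuron genes, the midbrain fate factors were higher in both defeat libraries. Gata3 had 1750.1 and 1572 normalized counts in Setd7 defeat libraries, against 1037, 1345, 652 and 932 in Setd7 control libraries (log2 fold change 0.79 ± 0.33, limma unadjusted p = 0.0338). Gata2 had 638 and 549.9, against 482, 414, 282 and 470.0 (0.55 ± 0.24, limma unadjusted p = 0.0367). Tal1, the third factor of that set, had 1105 and 842, against 740.3, 837, 431 and 659. All 3 lay above every control in both defeat libraries, as 4.18% of all genes did, and Tal1 did so narrowly (842 against 837). Of all genes 1.45% were higher at an unadjusted p under 0.05. Gata3 is also made by serotonin neurons. Of the 15 GABA genes 12 were higher and 3 lower, with a median of 0.15. Dlx1 was lower at an unadjusted p under 0.05 (1.13% of all genes) and below every control in both defeat libraries (4.96% of all genes). Gad1 and Gad2, the GABA synthesis enzymes, overlapped between the groups.

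Among the largest lower differences were hypothalamic genes, whose spread lay among the controls. Nkx2-1, a factor of the ventral hypothalamus, had 14.04 and 31.7 normalized counts in Setd7 defeat libraries, against 62.2, 33.4, 578 and 88.7 in Setd7 control libraries (log2 fold change -2.22 ± 1.49). Pmch, which encodes melanin-concentrating hormone, had 41.1 and 22.3, against 56.8, 51.2, 1428 and 243 (-2.52 ± 1.90). Dlx1, a forebrain GABA fate factor, had 6.02 and 14.1, against 26.2, 26.7, 228 and 41.8 (-2.34 ± 0.93, limma unadjusted p = 0.0268).

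In each of these, Setd7 control replicate 3 was far above the rest. Without it the log2 fold changes were -1.27 for Nkx2-1, -1.17 for Pmch and -1.63 for Dlx1. Of 14 hypothalamic genes assembled after these values were seen, 12 were highest in Setd7 control replicate 3. Their summed level was 778 and 719 in Setd7 defeat libraries, against 1045, 1239.8, 7543 and 1293 in Setd7 control libraries. Both sums lie below every control. The list holds Nkx2-1, Pmch and Dlx1 again, so its sums are a description and add no separate evidence. The part that hypothalamic tissue in the punch takes in these sums was not tested.

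**Figure D3:**
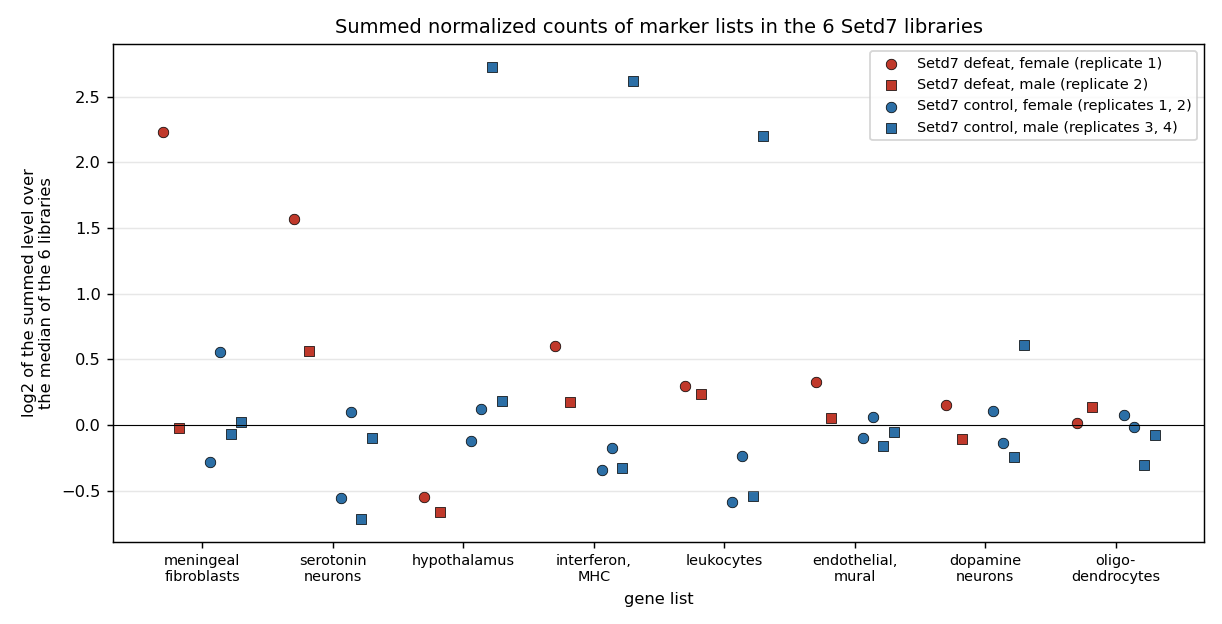
Summed normalized counts of 8 marker lists in each of the 6 Setd7 libraries, as log2 of the sum over the median of the 6 libraries; red is Setd7 defeat, blue Setd7 control, circles are female and squares male. Setd7 defeat replicate 1 is highest for meningeal fibroblasts (30129 against 5287 to 9451 in control libraries), and single control libraries are highest for hypothalamus (7543) and for interferon genes (69781).

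The lower genes with the smallest p had small differences. Elp2, a subunit of the Elongator complex that modifies transfer RNAs, had the smallest unadjusted p of the lower genes named here, with 1392 and 1414 normalized counts in Setd7 defeat libraries against 1762, 1655, 1735 and 1625 in Setd7 control libraries (log2 fold change -0.27 ± 0.07, limma unadjusted p = 0.00172). The defeat libraries lie close together and below every control. Its log2 fold change was -0.26 without replicate 1 and -0.29 without replicate 2. GFP defeat libraries had 1649 to 1724 and GFP control libraries 1564 to 1677.

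Naa30, the catalytic subunit of an N-terminal acetyltransferase, had 1907 and 1835 normalized counts in Setd7 defeat libraries, against 2222, 2262, 2092 and 2377 in Setd7 control libraries (log2 fold change -0.26 ± 0.08). Hypk, a partner of the main N-terminal acetyltransferase, had 35.1 and 34.003, against 80.8, 55.6, 76.6 and 51.0 (-0.89 ± 0.29). Pfdn6, a subunit of the prefoldin chaperone, had 279 and 293, against 358, 381, 365 and 464 (-0.45 ± 0.13). In these 3 genes both defeat libraries were below all controls and differed from each other by less than the controls did.

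Atp13a4, a P5-type ATPase found in astrocytes, had 678 and 632 normalized counts in Setd7 defeat libraries, against 857, 772, 1051 and 884 in Setd7 control libraries (log2 fold change -0.44 ± 0.13). Hif3a, a hypoxia-inducible factor subunit that glucocorticoids raise, had 332 and 267, against 465, 560.2, 525 and 326 (-0.62 ± 0.20). Its groups overlap by Setd7 control replicate 4, and it was lower after defeat with GFP as well (-0.49, limma unadjusted p = 0.0184). Ldoc1, Ncmap, Trim68, Dcaf10, Vmn2r85, Gpr151 and Speer4b were also lower in both defeat libraries than in every control, with log2 fold changes of -1.21 to -0.31. Of all genes 4.96% were lower in this way, and groups that do not overlap were part of the naming rule. Without replicate 1 the log2 fold changes of Ldoc1 and Speer4b were -0.48 and -0.17. Prdm12 was lower by 2.08 on that scale, with an SE of 1.15.

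Astrocyte genes included a set with low values in both defeat libraries, although as a list they were split, 9 higher and 9 lower with a median of 0.00. In 5 of the 18 both defeat libraries lay below every control (Aldh1l1, Fgfr3, Ntsr2, Acsbg1 and Itih3), against 4.96% of all genes. Aldh1l1, a folate enzyme widely used to mark astrocytes, had 1829 and 1745 normalized counts in Setd7 defeat libraries, against 2194, 1865, 2084 and 2137 in Setd7 control libraries (log2 fold change -0.21 ± 0.09, limma unadjusted p = 0.0457). Fgfr3, a growth factor receptor of astrocytes, had 6017 and 5736, against 7113, 6296, 6329 and 6954 (-0.18 ± 0.11).

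Oligodendrocyte genes leaned upward by little. Of 20 markers 19 were higher, with a median of 0.12. Of the higher ones, 1 (Ppp1r14a) was at an unadjusted p under 0.05, against 1.45% of all genes. Gjb1, a gap junction protein of myelinating cells, had 3043 and 3018 normalized counts in Setd7 defeat libraries, against 2771, 2653, 2202 and 2419 in Setd7 control libraries. The median was 0.25 without Setd7 defeat replicate 1 and 0.04 without replicate 2. It was 0.22 for defeat with GFP.

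Interferon and antigen presentation genes had a median near 0 that hides libraries far apart. The list's 32 genes gave a median of 0.04, with 18 higher and 14 lower and 0 at an unadjusted p under 0.05. Their summed level was 17237 and 12802 normalized counts in Setd7 defeat libraries, against 8939, 10048, 9016 and 69781 in Setd7 control libraries. All 32 genes were highest in Setd7 control replicate 4. The median was 1.25 between the females and -1.10 between the males, and 0.81 when Setd7 control replicate 4 was left out, with 31 of 32 genes then higher.

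Cd74, the chaperone of MHC class II, shows this in 1 gene, with 902 and 623 normalized counts in Setd7 defeat libraries against 71.0, 114, 86.3 and 8725 in Setd7 control libraries. H2-Aa, a class II chain, had 288 and 144, against 13.1, 42.3, 10.8 and 2351. Both defeat libraries exceed 3 of the 4 controls and fall well below the fourth. Leukocyte genes (median 0.21) were arranged alike, with summed levels of 498 and 478 in Setd7 defeat libraries and 270 to 344 in Setd7 control replicates 1 to 3, against 1861 in replicate 4. Of 22 leukocyte markers 10 passed the filter on low values, and all 10 were highest in that library. Setd7 control replicate 4 also had the lowest Setd7, 28587 normalized counts.

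Microglia genes had a median of 0.00, with 10 higher and 10 lower, and 19 of the 20 were highest in Setd7 control replicate 4. Their sum was 25451 and 19963 normalized counts in Setd7 defeat libraries, against 17764, 22994, 15741 and 43915 in Setd7 control libraries. Without that library all 20 were higher after defeat, with a median of 0.37. Complement, cytokine and reactive glia genes had a median of 0.28, with 13 of 20 higher, and -0.22 without Setd7 defeat replicate 1. Il1r1, the interleukin-1 receptor, was higher at an unadjusted p under 0.05, as were 1.45% of all genes. The part of infiltrating cells in these values was not tested.

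Dopamine neuron genes were near level between the groups. Of 28, 11 were higher and 17 lower, 0 of them at an unadjusted p under 0.05, and the median was -0.06. Slc6a3, the dopamine transporter, had 27777 and 21894 normalized counts in Setd7 defeat libraries, against 27847, 21718, 21452 and 45560.4 in Setd7 control libraries. Setd7 control replicate 4 was again the highest, for 21 of the 28 genes, and the median was 0.09 without it. With GFP the median was 0.75 and 27 of 28 genes were higher, where GFP defeat replicate 1 and GFP control replicates 2 and 3 had Th at 2539, 3392 and 2508 against 9759.5 to 17549.7 in the other GFP libraries. The difference of the defeat effect between viruses was under an unadjusted p of 0.05 by limma for 2 of the 28 genes, Foxa1 and Ntsr1. Over all genes that share was 4.96%.

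Genes of the stress axis moved little. The 20 glucocorticoid response genes had a median of 0.07, with 12 higher and 8 lower. In each direction 1 was at an unadjusted p under 0.05: Pdk4, a brake on glucose oxidation, and the metal-binding Mt2. Over all genes 1.45% were higher and 1.13% lower at that p. Mt2 had 629.9 and 810.2 normalized counts in Setd7 defeat libraries, against 1082, 1574, 871 and 819.7 in Setd7 control libraries (log2 fold change -0.56 ± 0.22, or -0.18 without replicate 1). Fkbp5, the glucocorticoid-induced co-chaperone, had 997 and 834, against 925, 828, 937 and 784, and these overlap (0.07 ± 0.15). The 11 genes of the corticotropin-releasing factor system and steroid receptors had a median of 0.06 with 0 at that p, and the 20 immediate early genes a median of -0.03 with 0.

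Genes of histone H3 lysine 4 methylation, the mark that Setd7 can place, showed no common direction. The list of 26 genes that write, bind or erase it, Setd7 among them, had a median of -0.03, with 9 higher and 17 lower. None was at an unadjusted p under 0.05 and none had non-overlapping groups. The 2 defeat libraries pointed apart, as the median was 0.05 without Setd7 defeat replicate 1 and -0.12 without replicate 2. Kmt2a, a lysine 4 methyltransferase of the MLL family, had 12385 and 15753 normalized counts in Setd7 defeat libraries, against 13261, 14752, 15842 and 14004 in Setd7 control libraries. The defeat libraries span nearly the whole control range. The 37 other chromatin regulators had a median of -0.02.

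Of 22 neuropeptide and opioid receptor genes 17 were lower and 5 higher, with a median of -0.19 and 0 at an unadjusted p under 0.05. That direction rests on single libraries, since the median was 0.03 with 12 of 22 higher without Setd7 defeat replicate 2, and -0.08 without Setd7 control replicate 3; hypothalamic Gal, at 21.1 and 17.6 normalized counts in Setd7 defeat libraries and 19.7, 25.97, 195 and 37.7 in Setd7 control libraries, is among them. Targets of p53 were lower in 12 of 15, with a median of -0.11. Tnfrsf10b, a death receptor, was lower and Perp, a desmosome protein, higher at an unadjusted p under 0.05. At that p 1.13% of all genes were lower and 1.45% higher. Perp had 352 and 163 normalized counts in Setd7 defeat libraries, against 147, 161, 170.4 and 161 in Setd7 control libraries, so only the female library was above the controls.

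Synaptic, channel and receptor genes stayed close to the median of all genes. The medians were -0.06 for 31 glutamate and GABA receptor genes, -0.03 for 35 ion channels and -0.04 for 22 genes of vesicle release, with 0 genes at an unadjusted p under 0.05 in each. With the female defeat library alone the medians were -0.18, -0.10 and -0.13, and with the male one alone they were 0.11, 0.01 and 0.05. Synaptic adhesion and scaffold genes (22) had a median of 0.005, and 13 neurotrophins and their receptors 0.10. Medians were 0.02 for 16 excitatory neuron genes and 0.02 for 39 axon guidance genes. For 16 dopamine and serotonin receptors the median was -0.05 (Drd3 higher at an unadjusted p under 0.05). For 16 perineuronal net genes it was -0.03 (Has2 lower at that p). At that p 1.45% of all genes were higher and 1.13% lower. The other glial, regional and lining lists with a median beyond 0.1 in size were choroid plexus (0.77 over 13 genes, 0.18 without replicate 1) and ependymal cells (-0.14 over 10 genes, from -0.83 without replicate 1 to 0.91 without replicate 2).

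**Figure D4:**
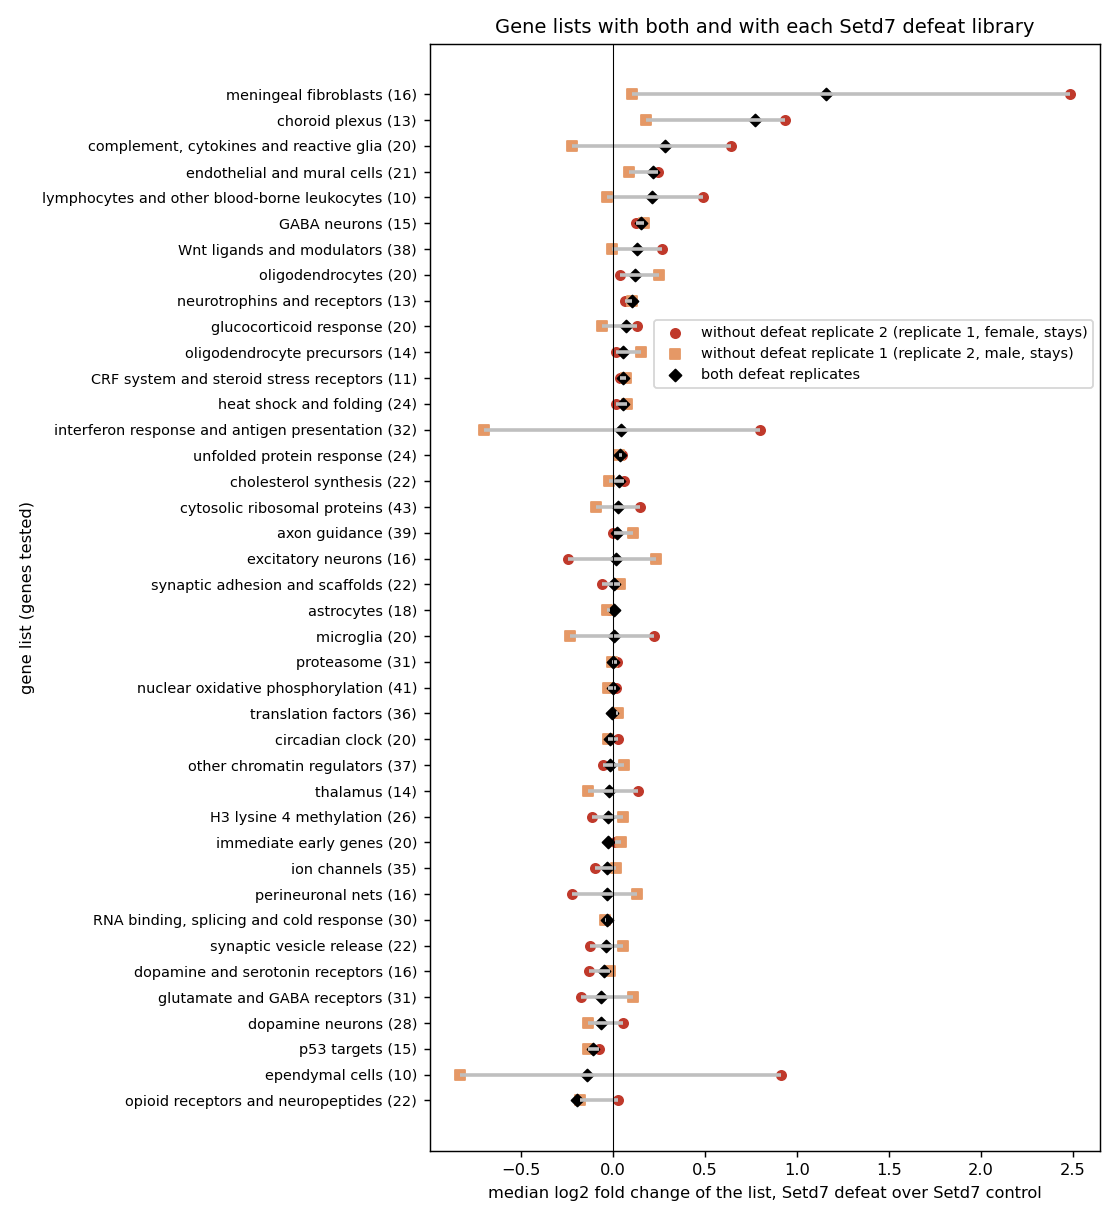
Median log2 fold change of each gene list with at least 10 genes tested (number tested in brackets), Setd7 defeat over Setd7 control; black diamonds use both defeat libraries, red circles leave out replicate 2 and orange squares leave out replicate 1. Meningeal fibroblasts span 0.10 to 2.48 and interferon genes -0.70 to 0.80, and most other lists lie near 0.

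Protein synthesis and energy genes had medians near 0 when both defeat libraries were used. The 43 cytosolic ribosomal protein genes had a median of 0.03, with 26 higher. That median was -0.09 without Setd7 defeat replicate 1 and 0.14 without replicate 2. Both defeat libraries lay above every control for 5 of the 43 and below for 2, against 4.18% and 4.96% of all genes. Of the higher ones, 1 (Rps6) was at an unadjusted p under 0.05, against 1.45% of all genes. Rps6, a small subunit protein, had 1771 and 1877 normalized counts in Setd7 defeat libraries, against 1446, 1708, 1465 and 1449.7 in Setd7 control libraries. Eif4a1, the translation initiation helicase, had 1868 and 1905, against 1459, 1662, 1701 and 1679 (log2 fold change 0.22 ± 0.08), and its groups do not overlap. Medians were 0.00 for 31 proteasome genes, -0.00 for 41 nuclear genes of oxidative phosphorylation and -0.00 for 36 translation factors. They were 0.05 for 24 heat shock genes, 0.04 for 24 genes of the unfolded protein response, 0.03 for 22 of cholesterol synthesis and -0.02 for 20 clock genes. Thalamus genes (14) had a median of -0.02 and oligodendrocyte precursor genes (14) of 0.06.

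The virus comparison shows how far the defeat difference with Setd7 resembles that with GFP. No library is shared between them. Across the 17755 genes the log2 fold changes correlated at r = 0.0166 and Spearman's rho = 0.0112, as a description across genes that are not independent, and 49.8% had the same sign. Defeat with GFP had 0 genes called by limma, 1642 at an unadjusted p under 0.05 (9.25%) and 83 called by DESeq2. The 2 comparisons had 37 genes at an unadjusted p under 0.05 in common. That is 8.06% of those with Setd7, against 9.25% of all genes at that p with GFP. It is 2.25% of those with GFP, against 2.59% of all genes at that p with Setd7. The overlap was thus no larger than the shares over all genes, and 18 of the 37 had the same sign.

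Of those 18, 4 were higher with both viruses: Sox1ot, Fzd2, Niban2 and Wscd1. Niban2, an adaptor of cell survival signalling, had 1502 and 1311 normalized counts in Setd7 defeat libraries, against 1103, 999, 1031 and 1191 in Setd7 control libraries. GFP defeat libraries had 1064 to 1313 and GFP control libraries 1027 to 1108. The group pairs overlap only with GFP.

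The medians of 2 further lists are set side by side for the viruses, with no test of a list. RNA-binding, splicing and cold-response genes had a median of -0.03 with Setd7 and -0.11 with GFP, and 8 and 1 of 30 were higher. Ribosomal protein genes had medians of 0.03 and 0.21, and 26 and 40 of 43 were higher. The difference between viruses was at an unadjusted p under 0.05 for 7 of the 30 and 8 of the 43, and for 10 of the 16 meningeal genes, where the median difference was 1.63; over all genes that share was 4.96%, and limma called no gene.

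**Figure D5:**
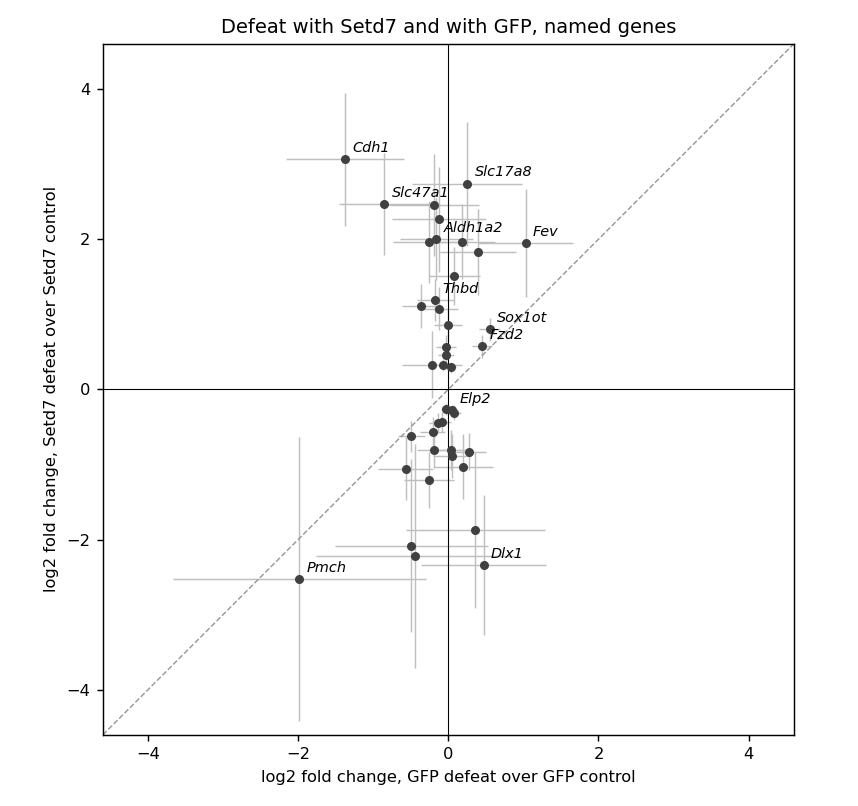
Log2 fold change of Setd7 defeat over Setd7 control (vertical) against GFP defeat over GFP control (horizontal) for the 41 named genes, with bars of 1 SE; the dashed line marks equal values. Sox1ot (0.80 and 0.55) and Fzd2 (0.57 and 0.45) lie near the line, and Cdh1 (3.06 and -1.38) lies far from it.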

How the data were processed

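Bulk RNA-seq was done on VTA punches (RNeasy Micro extraction, TruSeq RiboZero libraries, per the labels). The submitters' processing notes name Bowtie2, featureCounts, DESeq2 and the build GRCm39; versions are not given in the sources used here. The authors deposited 1 table of signal, counts divided by size factors, for 26264 genes in 13 libraries. Dividing each column by the value of 1 read gave whole reads for 100% of 341432 values (within 0.01); library depth was 26548713 to 50842070 reads.

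Genes with at least 10 normalized counts in 2 libraries (17755) were tested with limma 3.58.1 (R 4.3.3), with a trend, on log2(normalized count + 1), over all 13 libraries with 4 group means and sex, two-sided, with Benjamini-Hochberg adjustment at 0.05. All libraries entered because Setd7 defeat has 2. edgeR 4.0.16 and DESeq2 1.42.0 ran on the recovered reads, and the tests were tried on simulated data. Named genes were Setd7, genes called by any tool, the 12 per direction with the smallest unadjusted p, the 8 per direction with the largest change among non-overlapping groups (mean of at least 30), and 4 genes from each of 41 lists; predicted, RIKEN and Y-linked names were left out. One gene that the rule names is not reported here. Named outside this rule, after their values were seen, were Ogn, Slc13a4, Ptgds, Foxc1, Islr and the other genes called without Setd7 defeat replicate 2, Tph2, Slc6a4, Fkbp5, Kmt2a, Niban2, Wscd1, Olfr706, Col6a1, Mbd6 and Caprin2, and the serotonin, hypothalamus, arachnoid and collagen lists. The comparison and the lists were chosen with earlier results of these data known. Lists are described by counts and medians, without a test.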

Additional observations from a re-analysis of the deposited data

Results flagged for a closer look

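Values of 41 named genes and of 41 gene lists were checked in the 4 Setd7 control libraries for a sample far from the other 3 by Dixon's test, and 10 of 82 stood out; chance alone marks about 1 in 20 groups. Setd7 control replicate 3 was far above the other controls in Pmch (1428 normalized counts), Dlx1 (228) and Nkx2-1 (578). Setd7 control replicate 2 was highest in Bace2 (129.8) and lowest in Dcaf10 (1127). Tspan11 was lowest in Setd7 control replicate 1, at 6.55. Among the lists, as the mean log2 level of their genes, Setd7 control replicate 4 was highest for leukocytes (7.04) and for interferon and antigen presentation (9.9). Setd7 control replicate 2 was lowest for cholesterol synthesis (10.2). It was highest for Wnt ligands and modulators by a very small margin (8.10 against 8.08 to 8.09 in the other controls), which were nearly identical. The causes were not tested.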

How the results depend on the processing

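By limma 0 genes were called for defeat with Setd7, and 0 also with a stricter filter of 50, pseudocounts of 0.5 or 8, TMM scaling, the 6 Setd7 libraries alone, no term for sex, robust empirical Bayes, edgeR, or without the 3 GFP libraries low in Th (added after seeing the data). DESeq2 called 7, and limma with no filter called 1, Olfr706, at 6.02 and 7.04 normalized counts in Setd7 defeat libraries and 0 in every other library. Leaving out 1 library gave 0 to 18 calls, the highest without Setd7 defeat replicate 2. Genes at an unadjusted p under 0.05 numbered 459, 710 with no filter, and 348 to 1094 without 1 library (707 without Setd7 defeat replicate 1 and 1094 without replicate 2). The difference between viruses had 0 calls by limma, 1 by DESeq2 and 0 to 3 without 1 library, the 3 being Thbd, Fn1 and Slc22a8. Defeat with GFP had 0 calls by limma and 83 by DESeq2. Genes whose groups do not overlap, 1623, became 2376 to 7607 without 1 library, where fewer libraries have to be separated. The Setd7 log2 fold change was 0.33 and ranged from -0.19 to 0.85 without 1 library, reversing without Setd7 control replicate 4 (-0.17) and without Setd7 defeat replicate 2 (-0.19). The other 40 named genes kept their sign in every alternative that could test them (36 with the filter of 50). They were chosen from the same libraries, mostly by small p or by groups that do not overlap. A kept sign was therefore largely given by that choice. Of 41 list medians, 18 changed sign without Setd7 defeat replicate 1, 12 without replicate 2, 7, 5, 8 and 7 without Setd7 control replicates 1 to 4, 17 without Setd7 defeat replicate 1 and Setd7 control replicate 4 together (added after seeing the data), 8 with edgeR, 7 with DESeq2, 2 with TMM scaling, 1 with a pseudocount of 8 and 1 with the filter of 50. No paired analysis was possible because the labels give no pairing, and the numbers in them are not shared between groups. With 2 defeat libraries, each sex of that group is 1 library, so sex and library cannot be told apart.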

Other observations

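Collagen genes were gathered by symbol after the values were seen, and include Col1a1, Col1a2 and Col3a1 of the meningeal fibroblast list as well as Col6a2. Of 44 tested, 33 were higher after defeat and 11 lower, with a median log2 fold change of 0.18, and 21 were highest in Setd7 defeat replicate 1 while 14 were highest in Setd7 control replicate 3. The median was -0.16 without Setd7 defeat replicate 1. Col6a1, which pairs with Col6a2 in collagen VI, had 417 and 130.1 normalized counts in Setd7 defeat libraries, against 42.6, 106, 126 and 128 in Setd7 control libraries. Both defeat values were above every control. With GFP 5 of the 44 were higher after defeat, and the median was -0.37.

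Of the genes at an unadjusted p under 0.05 in both virus comparisons, an overlap no larger than the shares over all genes, 14 were lower after defeat in both. Mbd6, a methyl-CpG-binding domain protein, had 657 and 709 normalized counts in Setd7 defeat libraries, against 836, 693, 963 and 882 in Setd7 control libraries. GFP defeat libraries had 688 to 854 and GFP control libraries 944 to 1218. Caprin2, an RNA-binding protein, had 239 and 242 in Setd7 defeat libraries, against 364, 292, 299.9 and 276 in Setd7 control libraries. Both Setd7 defeat values of Caprin2 were below every Setd7 control, and GFP defeat libraries ran from 217 to 309 against 311 to 439 in GFP control libraries. The log2 fold changes of Hif3a, -0.62 with Setd7 and -0.49 with GFP, belong to the same set.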
